A study of Rattus norvegicus with 6 samples.

Results

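The genes described here encode the interstitial matrix of the kidney and mark the fibroblasts that make it. They were chosen as a fixed list of 39 genes: collagens other than type IV, matrix glycoproteins and proteoglycans, the enzymes that crosslink or cut them, and fibroblast markers. A gene was found on the array through the transcript accession of its probes. This matched 33 of the 39 genes with 60 probes, among 15645 genes named on the whole array, and 30 of them could be tested among 32956 transcripts. Col5a2, Col6a1, Col6a3, Col12a1, Fbln2 and Lox were not matched and were not analysed here. Lum, Postn and Mmp7 were matched but lay too close to background for the filter, which asked for a signal well above background on every array of at least 1 group.

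RNA came from the renal cortex of male Sprague-Dawley (Crl:CD(SD)) rats bought at 5 weeks of age. In the TBBC group, 3 rats were given 4,4'-linked thiobis(6-tert-butyl-m-cresol), a sulfur-bridged phenolic antioxidant of rubber and plastics, at 300 mg/kg/day for 4 weeks. In the vehicle group, 3 rats were given the corn oil alone for the same 4 weeks. Each rat was hybridised to 1 Agilent array of 1 colour. No transgene, deletion or second agent is named for either group, and the sources used here do not give the route.

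In the healthy cortex the interstitium between tubules is thin, and resident fibroblasts and pericytes, which carry the receptors Pdgfra and Pdgfrb, keep it up. Fibrillar collagens I and III form its fibres, fibronectin and the fibulins join fibres to cells, small proteoglycans such as decorin space them, and lysyl oxidases crosslink them. Metalloproteinases of the Mmp family cut matrix and Timp proteins inhibit them. In renal fibrosis, fibroblasts that turn on Acta2 lay down more of this matrix.

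The comparison of TBBC with vehicle asked whether the treated cortex differed in these genes. None of the 30 genes tested passed the threshold of adjusted p 0.05 in limma's moderated test, where 0.531% of all 32956 transcripts did (175). The log2 fold changes, given throughout as TBBC over vehicle, ranged from -0.81 for Vcan to 0.93 for Col8a1, with 18 above 0 and 12 below. Their median was 0.053, beside -0.024 over all transcripts tested. The 3 TBBC rats did not share this near-zero average: against the vehicle mean of each gene, the median gene stood at 0.013 in TBBC 1, at -0.55 in TBBC 2 and at 0.70 in TBBC 3. The median transcript of the array lay at -0.020, -0.047 and -0.011 on the same 3 arrays. In whole cortex, fewer cells of a type and less RNA per cell cannot be told apart.

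**Figure D1:**
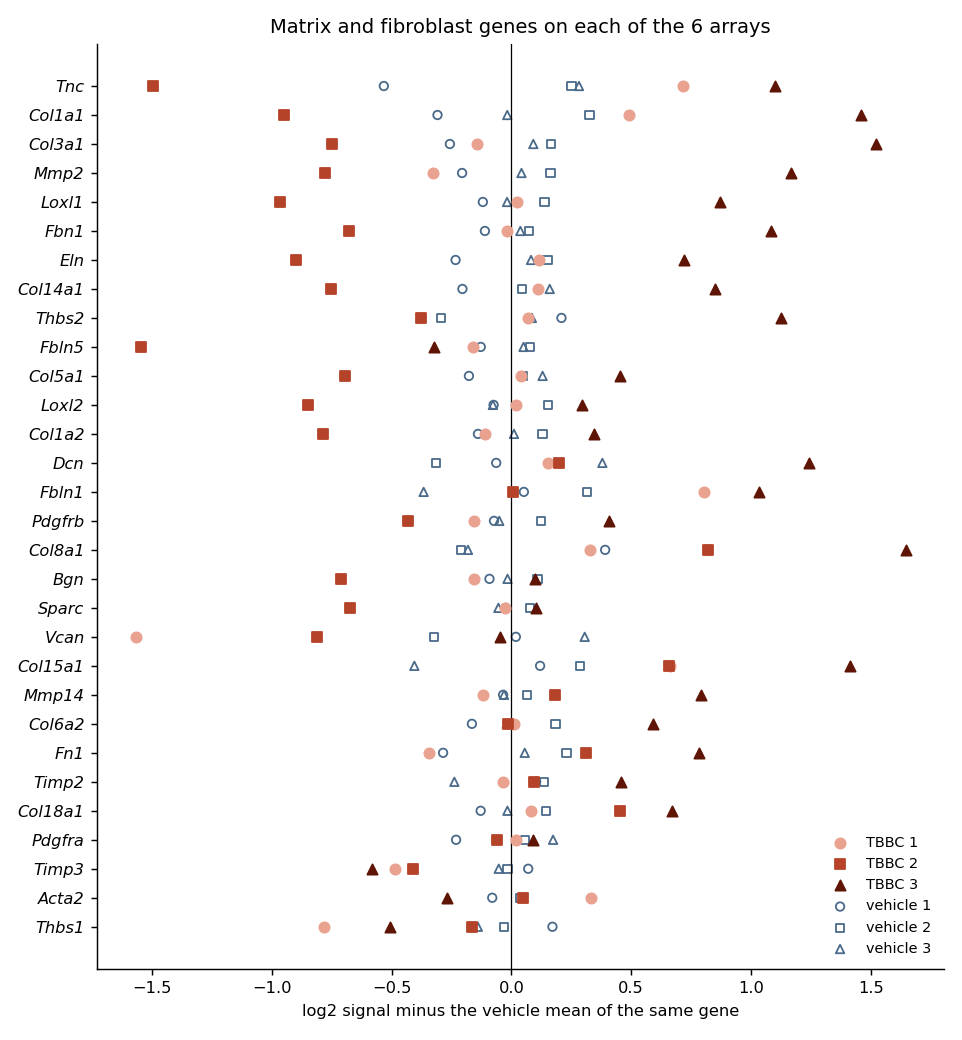
Log2 signal of each of the 30 genes on the 3 TBBC arrays (filled) and the 3 vehicle arrays (open), as the difference from that gene's vehicle mean (x axis), ordered down the page by the difference between TBBC 3 and TBBC 2. TBBC 3 lies to the right of TBBC 2 for 27 of 30 genes, beside 51.5% of all transcripts, and the vehicle arrays centre on 0 by construction. This contrast was chosen after the values had been seen.

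By weaker criteria the counts were small, and they differed from the share over all transcripts by few genes. Without adjustment, p was under 0.05 for 2 genes higher in TBBC, Col15a1 and Col8a1, where 9.55% of transcripts were. It was under 0.05 for 2 genes lower in TBBC, Thbs1 and Timp3, where 10.4% of transcripts were. The 3 TBBC arrays lay wholly above the 3 vehicle arrays for 1 gene, Col15a1 (13.1% of transcripts), and wholly below them for 3, Timp3, Thbs1 and Fbln5 (15.2% of transcripts). No tested gene differed by 2-fold or more in either direction, which 1.62% of transcripts did upward and 2.18% did downward. Under the same fit 2 of 11 injury markers of tubule epithelium passed and 9 did not. Those that passed were Havcr1 at 6.48 ± 0.73 (SE, adjusted p = 0.034) and Spp1 at 5.15 ± 0.26 (SE, adjusted p = 0.0043).

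**Figure D2:**
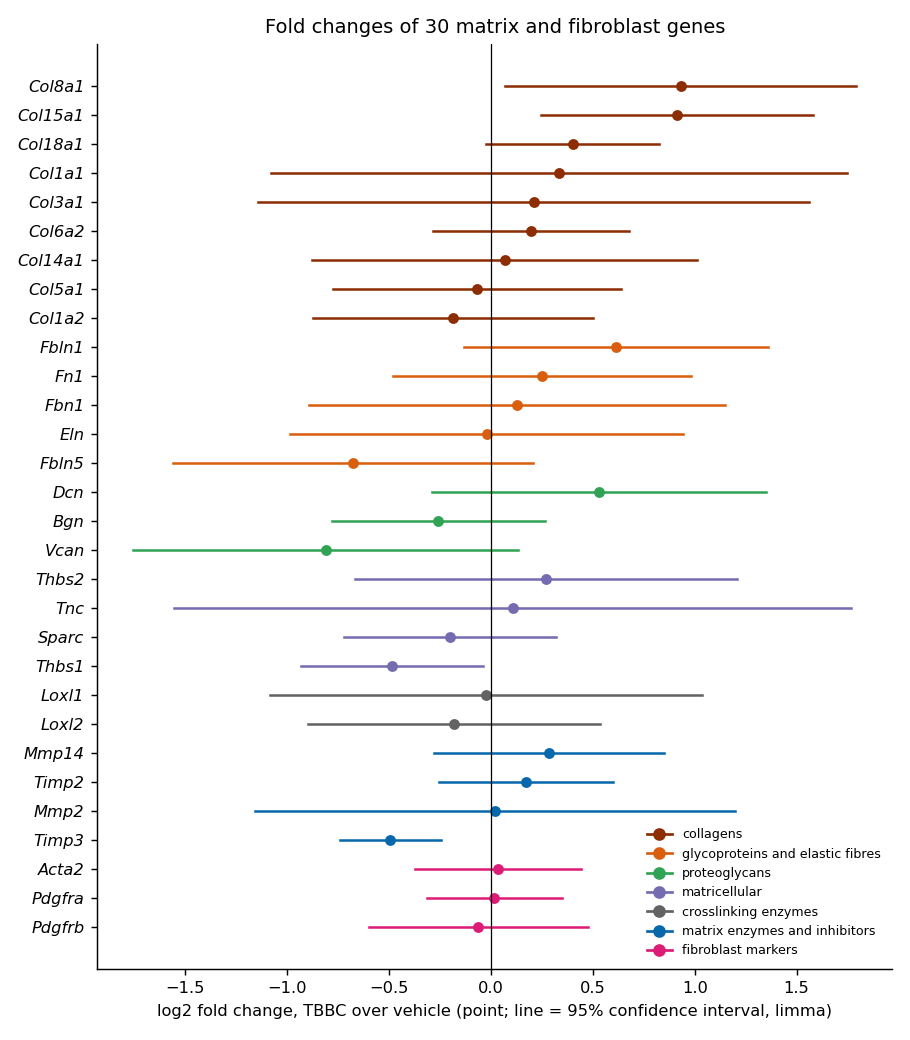
Log2 fold change of TBBC over vehicle for the 30 genes (x axis; point, limma estimate; line, 95% confidence interval; 3 arrays per group), coloured by role. The points run from -0.81 (Vcan) to 0.93 (Col8a1), and the intervals of Col8a1, Col15a1, Thbs1 and Timp3 do not reach 0.

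The promoters of 4 genes are shown first, 3 because they had an unadjusted p under 0.05 with no overlap between TBBC and vehicle arrays. Mmp7 is shown for a difference of at least 2-fold between group means, which rested mainly on TBBC 3. Each promoter runs 5′ to 3′ on the gene's own strand, with 250 bases before and 50 after the start, from RefSeq's GRCr8 assembly. Timp3 lies at chr7:19459509-19459808 on the minus strand, Col15a1 at chr5:66297296-66297595, Thbs1 at chr3:125510000-125510299 and Mmp7 at chr8:13132793-13133092, the last 3 on the plus strand. Capitals mark matches, on either strand, to 5 motifs. These were the AP-1 motif, spelled TGANTCA, and the SMAD motif, spelled CAGACA. The others were the box named for its own letters CCAAT, the GC box, whose letters were GGGCGG, and the TATA box, for which the letters TATAAA were searched.
Timp3: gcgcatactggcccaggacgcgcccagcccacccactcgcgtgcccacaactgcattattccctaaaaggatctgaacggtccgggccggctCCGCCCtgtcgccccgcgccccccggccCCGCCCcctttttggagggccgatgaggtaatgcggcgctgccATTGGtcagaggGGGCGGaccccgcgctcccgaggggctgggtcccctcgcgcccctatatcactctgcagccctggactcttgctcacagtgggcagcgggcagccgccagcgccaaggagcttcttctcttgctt
Col15a1: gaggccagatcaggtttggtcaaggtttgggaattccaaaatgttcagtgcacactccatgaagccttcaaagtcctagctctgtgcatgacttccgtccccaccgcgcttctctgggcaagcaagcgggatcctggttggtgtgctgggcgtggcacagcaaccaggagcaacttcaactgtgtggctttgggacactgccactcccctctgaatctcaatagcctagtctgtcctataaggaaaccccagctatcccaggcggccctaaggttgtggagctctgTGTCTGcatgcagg
Thbs1: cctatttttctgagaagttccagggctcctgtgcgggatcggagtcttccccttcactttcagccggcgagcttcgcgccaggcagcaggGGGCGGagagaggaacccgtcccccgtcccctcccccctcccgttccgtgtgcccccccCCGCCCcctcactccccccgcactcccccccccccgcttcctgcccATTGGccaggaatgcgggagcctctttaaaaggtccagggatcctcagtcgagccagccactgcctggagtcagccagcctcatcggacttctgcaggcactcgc
Mmp7: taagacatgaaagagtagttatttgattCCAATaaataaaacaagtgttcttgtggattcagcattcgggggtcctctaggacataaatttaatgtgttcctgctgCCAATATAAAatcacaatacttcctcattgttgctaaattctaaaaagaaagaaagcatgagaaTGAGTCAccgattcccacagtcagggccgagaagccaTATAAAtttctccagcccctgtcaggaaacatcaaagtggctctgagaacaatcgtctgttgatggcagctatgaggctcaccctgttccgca

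Of the 39 genes, 23 had a promoter in the sequence table, and 1 of them, Vcan, had more than 1, giving 24 sequences. The AP-1 motif was in 3 of the 24 (Mmp7, Pdgfra and Col6a1), where 7.33% of all 33469 promoters hold it. In Mmp7 its match TGAGTCA began at position -80, counted from the start, and the TATA box began at -43. A second TATA match in Mmp7, at -140, overlaps the end of the CCAAT match at -144. The SMAD motif was in 8 of 24 (21.1% of all promoters), the CCAAT box in 8 (37.5%), the GC box in 11 (33.1%) and the TATA box in 4 (14.2%). Timp3 held 3 GC boxes and 1 CCAAT box, Thbs1 2 GC boxes and 1 CCAAT box, and Col15a1 1 SMAD match after its start. These are letter matches in a fixed window and not measured binding.

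Timp3, the Timp inhibitor that stays bound to the matrix, was the gene with the smallest p. Its log2 signal, relative to the array's 75th percentile as for all levels below, was 1.06, 1.14 and 0.97 in TBBC 1 to 3, against 1.62, 1.53 and 1.50 in vehicle 1 to 3. All TBBC arrays were lower than all vehicle arrays, and both groups were tight, with an SD of 0.085 in TBBC and 0.063 in vehicle (n = 3 each). The log2 fold change was -0.49 ± 0.10 (SE), a 1.41-fold lower level, with limma's adjusted p = 0.0893. With an eBayes prior that follows signal and resists outliers its adjusted p was 0.0464, a setting that called 3.30% of all transcripts and 3.33% of the 30 genes (Timp3 alone). Across the 18 alternative settings its log2 fold change lay between -0.53 and -0.45 and its adjusted p between 0.0464 and 0.302.

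Col15a1 encodes a collagen of the border between basement membrane and interstitium. It was at 0.51, 0.51 and 1.26 in TBBC 1 to 3, against -0.03, 0.13 and -0.56 in vehicle 1 to 3. Every TBBC array was above every vehicle array, with TBBC 3 the highest. The log2 fold change was 0.91 ± 0.28 (SE), or 1.88-fold, with limma's adjusted p = 0.155. Its other probe gave 0.68.

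Col8a1 encodes a short-chain collagen found around vessels. Its dim probe read -4.52, -4.03 and -3.20 in TBBC 1 to 3, against -4.46, -5.06 and -5.03 in vehicle 1 to 3. TBBC 1 lay within the vehicle range and the other 2 TBBC arrays lay above it. The log2 fold change was 0.93 ± 0.36 (SE), or 1.91-fold, with limma's adjusted p = 0.222, and it was 0.33 for TBBC 1 against the vehicle arrays of its own slide.

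Thbs1, a matricellular glycoprotein known for releasing active transforming growth factor beta, was also dim. It read -5.15, -4.53 and -4.87 in TBBC 1 to 3, against -4.20, -4.40 and -4.51 in vehicle 1 to 3. The groups did not overlap, but TBBC 2 and vehicle 3 were almost level. The log2 fold change was -0.48 ± 0.18 (SE), with limma's adjusted p = 0.220, and it was -0.05 when the background was corrected with normexp.

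Mmp7, matrilysin, a metalloproteinase made mainly by epithelial cells, stood out on 1 array. It read -5.82, -4.93 and 0.83 in TBBC 1 to 3, against -6.25, -6.73 and -5.99 in vehicle 1 to 3. It was not well above background on any vehicle array or in TBBC 1, so these 4 values have no order. It was just measurable in TBBC 2 and was far above all other arrays in TBBC 3. The TBBC mean was -3.31 and the vehicle mean -6.33, with signal well above background on 2 of 3 TBBC arrays. With each vehicle array raised to at least its dimmest signal well above background, the TBBC mean over all 3 arrays was 6.22-fold higher. That figure takes TBBC 1 as read, though it was not well above background, and rests mainly on TBBC 3. It is therefore no strict lower bound. The filter left Mmp7 out of the test. In a fit without the filter its log2 fold change was 3.02 ± 1.73 (SE, limma's adjusted p = 0.506).

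**Figure D3:**
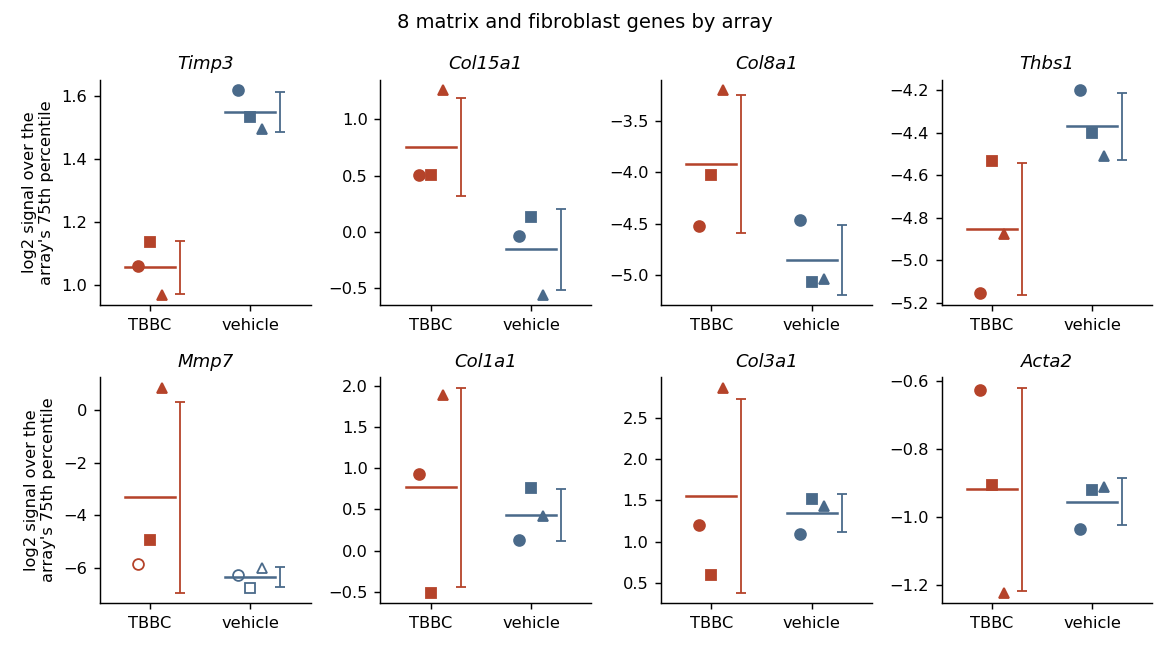
Log2 signal over the array's 75th percentile (y axis, scaled per gene) for 8 genes in TBBC (left of each panel) and vehicle (right): points are arrays, with circle, square and triangle for replicates 1, 2 and 3, and an open point was not well above background; the horizontal line is the mean and the bar its SD (n = 3 each). Timp3, Col15a1 and Thbs1 separate the groups, the Mmp7 mean in TBBC rests on TBBC 3 at 0.83, and the TBBC arrays of Col1a1 and Col3a1 lie on both sides of the vehicle arrays.

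The fibrillar collagens, the bulk of interstitial scar, were spread out within the TBBC group. Col1a1, the alpha 1 chain of collagen I, was at 0.93, -0.51 and 1.89 in TBBC 1 to 3, against 0.13, 0.76 and 0.42 in vehicle 1 to 3. Col1a2, its alpha 2 chain, was at 3.38, 2.70 and 3.83 in TBBC 1 to 3, against 3.35, 3.62 and 3.50 in vehicle 1 to 3. Col3a1, collagen III, was at 1.20, 0.60 and 2.87 in TBBC 1 to 3, against 1.09, 1.51 and 1.44 in vehicle 1 to 3. In all 3 genes TBBC 2 was below every vehicle array and TBBC 3 above every vehicle array. All 3 probes of Col1a1 and both probes of Col1a2 had this order. Over all members, 17 had more than 1 usable probe, and the probes gave log2 fold changes of the same sign for 12. For Bgn, Col5a1, Col6a2, Eln and Fbn1 they differed in sign, as for Bgn with -0.26 and 0.035 and Col5a1 with -0.07 and 0.67.

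Their averages therefore carried wide errors. Col1a1 had a log2 fold change of 0.33 with a 95% interval from -1.08 to 1.75, and Col3a1 one of 0.21 with an interval from -1.14 to 1.56. For Col1a2 the log2 fold change was -0.18 with an interval from -0.87 to 0.50. Both a 2-fold rise and a 2-fold fall lie within the intervals of Col1a1 and Col3a1. Without TBBC 3 the 3 values were -0.23, -0.45 and -0.45 for Col1a1, Col3a1 and Col1a2, and without TBBC 2 they were 0.98, 0.69 and 0.12. The other collagens tested were Col18a1 (0.40, adjusted p = 0.274), Col6a2 (0.20), Col14a1 (0.07) and Col5a1 (-0.07). Over all 9 collagens the median was 0.21, with 7 above 0, as were 46.5% of all transcripts. Without TBBC 3 only 3 of the 9 were above 0, Col8a1, Col15a1 and Col18a1.

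Among glycoproteins and elastic fibre genes, Fn1, fibronectin, was at 1.01, 1.67 and 2.14 in TBBC 1 to 3, against 1.08, 1.59 and 1.42 in vehicle 1 to 3. TBBC 1 was the lowest of the 6 arrays and TBBC 3 the highest, and the log2 fold change was 0.25 with a 95% interval from -0.48 to 0.98. Fbln5, a fibulin needed for elastic fibre assembly, was at 0.67, -0.71 and 0.51 in TBBC 1 to 3, against 0.70, 0.91 and 0.88 in vehicle 1 to 3. The groups did not overlap, but TBBC 1 and vehicle 1 were almost level. Its log2 fold change of -0.68 ± 0.36 (SE) had an unadjusted p of 0.111 and a limma adjusted p of 0.359. Fbln1 stood at 0.61 (adjusted p = 0.328), Fbn1, the fibrillin of microfibrils, at 0.13, and Eln, elastin, at -0.02.

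The 3 proteoglycans tested differed in sign and none passed. Dcn, decorin, had a log2 fold change of 0.53 (adjusted p = 0.433) and Bgn, biglycan, one of -0.26 (adjusted p = 0.555). Vcan, versican, a large proteoglycan of provisional matrix, had -0.81 ± 0.39 (SE, limma's adjusted p = 0.310). It was dim, with TBBC 1 at -4.84 the lowest of the 6 arrays. Its log2 fold change was -0.43 without TBBC 1 and -1.57 for TBBC 1 against the vehicle arrays of its slide. Lum, lumican, was not well above background on any of the 6 arrays.

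Among matricellular genes, which tune how cells hold to matrix, Tnc, tenascin C, had the widest spread. It was at -4.64, -6.85 and -4.26 in TBBC 1 to 3, against -5.89, -5.11 and -5.08 in vehicle 1 to 3. It was not well above background in TBBC 2, while TBBC 1 and TBBC 3 lay above all vehicle arrays. The log2 fold change of 0.11 had a 95% interval from -1.55 to 1.76, and it was 0.91 without TBBC 2. Thbs2 was at 0.27 and Sparc, which binds collagen, at -0.20, and Postn, periostin, was not well above background on any array. The lysyl oxidase relatives Loxl1 and Loxl2, which crosslink collagen and elastin, had log2 fold changes of -0.02 and -0.18.

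Of the matrix enzymes other than Mmp7, Mmp2, gelatinase A, had a log2 fold change of 0.02 with an interval from -1.15 to 1.20. Its activator Mmp14, a membrane-bound metalloproteinase, had 0.28, and Timp2, which takes part in that activation, had 0.17. The 2 receptors and the contractile gene that mark fibroblasts had a median log2 fold change of 0.017. Acta2, smooth muscle actin, was at -0.62, -0.91 and -1.22 in TBBC 1 to 3, against -1.04, -0.92 and -0.91 in vehicle 1 to 3. Pdgfra was at 2.28, 2.19 and 2.35 in TBBC 1 to 3, against 2.02, 2.31 and 2.43 in vehicle 1 to 3. Pdgfrb was at 0.27, -0.0016 and 0.83 in TBBC 1 to 3, against 0.36, 0.55 and 0.38 in vehicle 1 to 3. The groups overlapped for all 3 genes. Their 95% intervals ran from -0.37 to 0.44 for Acta2, from -0.31 to 0.35 for Pdgfra and from -0.60 to 0.48 for Pdgfrb, each excluding a 2-fold change. In TBBC 3, Acta2 was the lowest of its 6 arrays, Pdgfrb was the highest of its 6, and Pdgfra was within the vehicle range.

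For most of these genes the TBBC arrays differed from one another more than the vehicle arrays did. The vehicle arrays shared 1 slide with TBBC 1, while TBBC 2 and TBBC 3 were on another. The TBBC spread can therefore hold a difference between slides that the vehicle spread cannot, and in it slides and rats cannot be told apart. The SD among TBBC arrays had a median of 0.58 over the 30 genes, against 0.18 among vehicle arrays. Over all transcripts the same medians were 0.23 in TBBC and 0.13 in vehicle. The TBBC SD was the larger for 29 of 30 genes, Pdgfra being the exception, and for 74.3% of all transcripts.

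**Figure D4:**
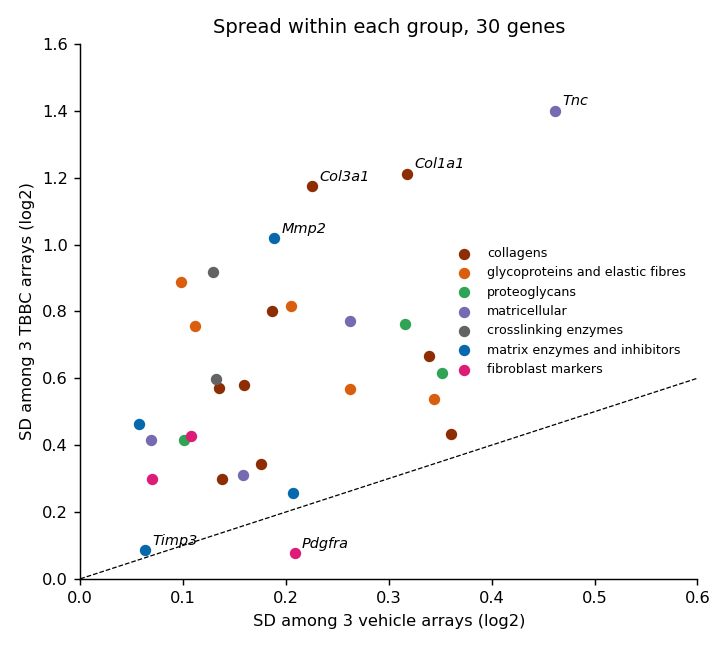
SD of log2 signal among the 3 TBBC arrays (y axis) and among the 3 vehicle arrays (x axis) for each of the 30 genes, coloured by role; the dashed line marks equal SDs. 29 genes lie above the line, Tnc, Col1a1, Col3a1 and Mmp2 highest, and Pdgfra lies below it.

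The counts in the next sentences were chosen after the values had been seen, and they describe the rats and test nothing. TBBC 3 was the highest of the TBBC arrays for 26 of 30 genes, beside 33.7% of transcripts, and TBBC 2 the lowest for 20, beside 36.7%. TBBC 3 lay above the vehicle range for 23 genes (34.3% of transcripts) and TBBC 2 lay below it for 19 (41.8%). For 14 genes both held, as they did for 8.32% of transcripts. These 14 were the collagens Col1a1, Col1a2, Col3a1, Col5a1 and Col14a1, the elastic fibre genes Eln and Fbn1, the crosslinking enzymes Loxl1 and Loxl2, and Mmp2, Pdgfrb, Sparc, Thbs2 and Tnc.

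Set directly against each other, TBBC 3 exceeded TBBC 2 by a median of 0.93 on the log2 scale over the 30 genes, and by 0.012 over all transcripts. It was 2-fold or more higher for 15 genes, as for 5.32% of transcripts. Both arrays were on the same slide, per the file headers, so this difference was within a slide. The other slide held TBBC 1 and all vehicle arrays, and TBBC 1 against vehicle there gave a median of 0.013 over the 30 genes. Without TBBC 3 the median log2 fold change of the 30 genes was -0.32, and without TBBC 2 it was 0.32. With 1 array per rat, a difference between rats and a difference between arrays of their RNA cannot be told apart.

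Lists of related genes that were no members gave 0 passing genes in each of 5 lists. Their counts at an unadjusted p under 0.05, given below, stand beside 9.55% of all transcripts higher and 10.4% lower. Of 54 other interstitial matrix genes 33 were tested, with a median log2 fold change of -0.10, 2 higher and 5 lower at an unadjusted p under 0.05. Ltbp2, a latent transforming growth factor beta binding protein family member, stood at 1.39 ± 0.21 (SE, limma's adjusted p = 0.0571) and the lysyl oxidase relative Loxl4 at 1.55 (adjusted p = 0.124). Loxl4 was dim, at -4.42, -5.50 and -5.46 in vehicle 1 to 3, and on at least 1 array it was not well above background. Vtn, vitronectin, stood at -1.17 (adjusted p = 0.315; -0.53 without vehicle 1) and Ncan, neurocan, at -0.95 (adjusted p = 0.0937). The per-array medians of this list were 0.053, -0.56 and 0.28 in TBBC 1 to 3.

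Of 31 genes that process collagen 22 were tested, with a median of 0.17 and per-array medians of 0.14, 0.082 and 0.12 in TBBC 1 to 3, against -0.027, 0.044 and -0.022 in vehicle 1 to 3. Of the 22 genes, 15 were above 0 and 7 below. Ppib, a prolyl isomerase of the collagen modifying complex, was at 0.66 (adjusted p = 0.0715) and the prolyl hydroxylase subunit P4ha2 at 0.77 (adjusted p = 0.339). Pepd, which splits proline dipeptides, was at -0.42 (adjusted p = 0.109) and P3h2 at -0.30 (adjusted p = 0.325). At an unadjusted p under 0.05, 3 genes of the list were higher and 1 was lower.

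Genes of matrix degradation and its control had 30 of 39 tested and a median of 0.02, with per-array medians of -0.040, 0.057 and 0.047 in TBBC 1 to 3. Timp1, a secreted inhibitor, was at 2.31, 3.79 and 3.13 in TBBC 1 to 3, against 0.98, 1.15 and 0.87 in vehicle 1 to 3, a log2 fold change of 2.08 ± 0.36 (SE, limma's adjusted p = 0.0707). All TBBC arrays were above all vehicle arrays, and it was 1.31 on the shared slide alone. Htra1, a secreted serine protease, was at -0.93 (adjusted p = 0.0693) and Mmp24 at -0.59 (adjusted p = 0.177), and over the list 6 genes were higher and 3 lower at an unadjusted p under 0.05.

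Of 28 matrix receptors 21 were tested, with a median of -0.03, per-array medians of -0.018, 0.064 and 0.0067 in TBBC 1 to 3, and 4 higher and 2 lower at an unadjusted p under 0.05. Sdc1, a syndecan, was at 0.92 ± 0.13 (SE, limma's adjusted p = 0.0508) and the hyaluronan receptor Cd44 at 1.09 (adjusted p = 0.241), but 0.30 on the shared slide alone. Sdc2 was at -0.67 (adjusted p = 0.171) and Sdc3 at -0.37 (adjusted p = 0.337). Of 40 further fibroblast and pericyte markers and PDGF ligands 31 were tested, with a median of -0.06, 3 higher and 5 lower at the same unadjusted p. Its per-array medians were 0.089, -0.26 and 0.16 in TBBC 1 to 3, the order of rats seen for the 30 genes. Ngfr (0.90, adjusted p = 0.111) and Notch3 (0.65, adjusted p = 0.118, but 0.20 as the mean of its probes) were highest, and Dpep1 (-0.80, adjusted p = 0.184) and Angpt1 (-0.71, adjusted p = 0.0997) were lowest. The cells that gave these signals in whole cortex were not determined. This holds for Dpep1 too, so its level cannot be read as that of fibroblasts.

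Markers of other cells that cortex can hold were set beside the per-rat pattern. Leukocyte markers, with 17 of 20 tested, had medians of -0.14, -0.49 and 0.71 in TBBC 1 to 3 relative to the vehicle mean, the same order of rats as the matrix genes. Their mean level, the log2 of the mean unlogged signal, was 2.45, 2.50 and 3.52 in TBBC 1 to 3, against 2.93 to 3.12 in vehicle. This measure, used for every cell list here, is weighted to the brightest genes, such as Lyz2 and Cd74 among leukocyte markers. By it TBBC 1 was the lowest, unlike by the medians. Of the leukocyte markers, Cd163 was dim while Cd79a and Ms4a1 were not matched. Proliferation markers, with 9 of 12 tested, had medians of -0.52, -0.79 and 0.26 and mean levels of -1.47 to -0.77 in TBBC, against -1.29 to -0.87 in vehicle, with Aurkb dim. The part of either in the matrix pattern was not tested.

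Vascular smooth muscle and mesangial markers, with 8 of 11 tested, gave -0.02, -0.12 and -0.06 in TBBC 1 to 3, and endothelial markers, with 10 of 12, gave -0.20, -0.05 and -0.26. Their mean levels were 1.06 to 1.39 and 2.85 to 3.04 in TBBC, against 1.37 to 1.63 and 3.06 to 3.11 in vehicle, with Cnn1 and Lmod1 dim and Synpo2, Egfl7 and Vwf not matched. Injured tubule markers, with 11 of 13 tested, gave 0.25, 1.08 and 0.95, so TBBC 2 and TBBC 3 were both high there. Krt20 was dim, Sox9 was not matched, and Vim is also a fibroblast marker. The list had mean levels of 4.57 to 5.45 in TBBC, against 2.99 to 3.10 in vehicle. All 11 defining markers of kidney tubule and podocyte were detected, with medians of -0.17, -0.26 and -0.34 and mean levels of 6.26 to 6.52 in TBBC, against 6.67 to 6.81 in vehicle. The share of probes well above background was 67.1% to 70.9% in TBBC and 70.0% to 70.7% in vehicle, lowest in TBBC 2, and its part in the pattern was not tested.

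**Figure D5:**
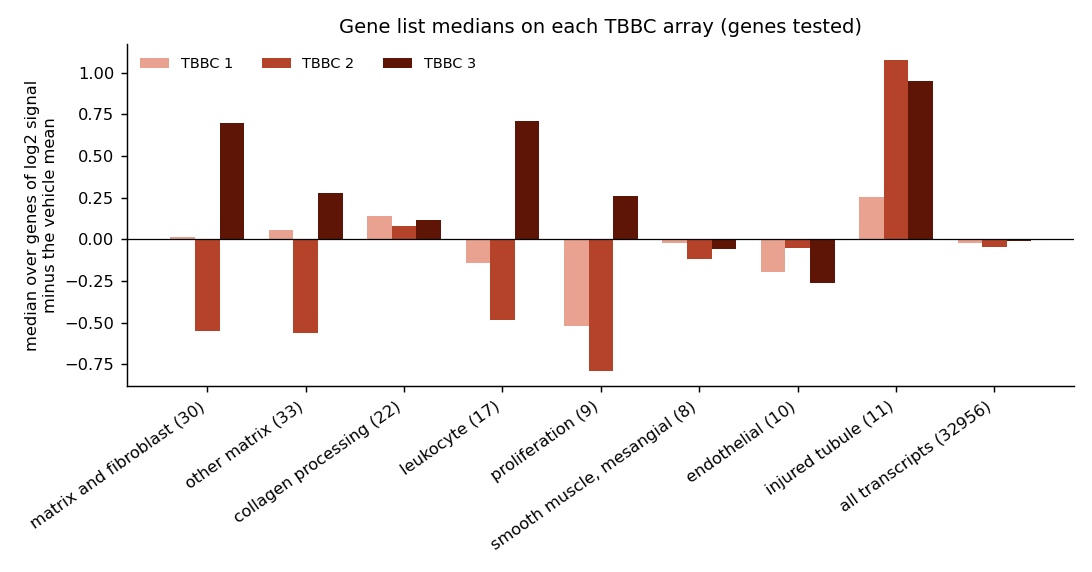
Median over genes of log2 signal minus the vehicle mean (y axis) on TBBC 1, 2 and 3 (bars) for the 30 matrix and fibroblast genes, other gene lists and all transcripts, with the number of genes tested in brackets. The medians of the matrix, other matrix, leukocyte and proliferation lists are lowest in TBBC 2 and highest in TBBC 3, at -0.55 and 0.70 for the 30 genes, while injured tubule markers are above 0 on all 3 arrays.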

How the data were processed

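The authors deposited 1 scanner file per array with spot intensity values, made by Agilent Feature Extraction (version 10.7.1.1 in the headers, 10.7 in the submitters' processing notes). That program had subtracted background within an array, with no scaling across arrays. Their deposited value table holds a linear ratio: processed signal over a constant that differed from the 75th percentile of that array by at most 0.232%, neither logged nor centred. Its column medians were 0.113, 0.107 and 0.114 in TBBC 1 to 3 and 0.111, 0.112 and 0.113 in vehicle 1 to 3.

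After 1439 of 62976 spots were dropped as controls, unversioned accessions were looked up in a RefSeq gene table (GRCr8), which named 28206 of 61537 probes. The headers name another genome build, so coordinates stand only beside promoter sequences. Signals were scaled to the 75th percentile of each array (controls left out) and log2 transformed. Outlier spots (0 to 9 per array) were dropped, and none was saturated. The brightest tested probe stood for a gene, and unnamed probes were kept singly. Groups, taken from the sample titles, were compared by limma 3.58.1 (R 4.3.3; lmFit and eBayes, two-sided). Benjamini-Hochberg adjustment covered the 32956 transcripts. The procedure was tested on simulated data. The number of arrays limits the precision, and the series' design calls the replicates biological.

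The genes, the lists and the tests were chosen with earlier results of these data known. All genes of the list were named. Values on every array were given for those with an adjusted or unadjusted p under 0.05, those at least 2-fold apart, 7 defining genes, and the 3 whose TBBC arrays lay farthest apart. Array values of Fbln5 and Timp1 were added after they were seen. From each related list the 2 highest and 2 lowest were named, except 1 gene that is not reported here. Same-numbered TBBC and vehicle arrays did not deviate together (correlations -0.095, 0.033 and -0.074), so replicate numbers were not treated as pairs.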

Additional observations from a re-analysis of the deposited data

How the results depend on the processing

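Of the 18 alternatives, 17 called 0 of the genes described, as did limma as reported, in which 4 of 30 had an unadjusted p under 0.05. With eBayes trend and robust, 1 was called, Timp3. The count of transcripts called was 175 as reported. It was 761 with normexp (offset 50, run on the median signal), 52 with no filter on dim probes, 1087 with eBayes trend and robust, 48 with slide as a fixed term, 307 on the shared slide alone (where TBBC 1 is assumed to vary like vehicle) and 6 to 274 when 1 array was left out (10, 6 and 14 without vehicle 1, 2 and 3, and 58 without TBBC 2). With the replicate number as a block 0 transcripts and 0 of the genes were called, while 4 of the genes had an unadjusted p under 0.05. The higher and lower calls were 84 and 91 as reported, 43 and 5 with slide as a fixed term and 263 and 44 on the shared slide alone.

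Timp3, Col15a1, Col8a1 and Thbs1 kept their direction under all 18. The 18 are not independent checks, because settings such as eBayes trend and robust leave the log2 fold change as it is. Where the groups do not overlap, as for Timp3, Col15a1 and Thbs1, leaving out 1 array cannot reverse it. Among related genes, Sdc1 passed under 5 alternatives, Ltbp2 under 4, Timp1 and Htra1 under 3, Ppib under 2 and Pepd under 1, each in its reported direction. All related genes named kept their direction under every setting that gave a value. They were picked as the highest and lowest of their lists in these same data, so this is no separate support. On the shared slide alone Sdc2 was -0.24, Sdc3 -0.08, Dpep1 -0.36, Mmp24 -0.27, P3h2 -0.061 and Notch3 0.39, and with normexp Loxl4 was 0.74, Ncan -0.44 and Ngfr 0.47. P4ha2 was 0.43 without TBBC 2 and 1.17 without TBBC 3. Col3a1 was -0.14 and Fn1 -0.35 with slide as a fixed term and on the shared slide alone, and Pdgfrb was 0.035 with normexp. Leaving out 1 array gave ranges of -0.23 to 0.98 for Col1a1, -0.45 to 0.12 for Col1a2, -0.45 to 0.69 for Col3a1, -0.017 to 0.55 for Fn1, -0.39 to 0.91 for Tnc, -0.11 to 0.19 for Acta2, -0.10 to 0.10 for Pdgfra and -0.29 to 0.12 for Pdgfrb. The cause was not tested. With 3 arrays per group, signal near background limits Mmp7, Tnc, Vcan, Col8a1 and Thbs1, and related genes such as Loxl4.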
